A study of Mus musculus with 90 samples.

Results

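The unfolded protein response genes described here are Hspa5, Hyou1, Dnajb9, Sdf2l1, Pdia4, Creld2, Herpud1, Xbp1, Atf4 and Ddit3, measured as RNA in mouse liver. They were chosen by symbol, as genes of endoplasmic reticulum (ER) protein folding and its stress response, and each matched 1 row of the count tables, so that they are 10 of 27654 genes. Earlier results of these data were known when they were chosen. Shares of members set beside the share of all genes are therefore a description and not a test of the set. All 10 passed the filter on low counts in each comparison. 

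The study asked how caloric restriction (cal. res.) and the hepatocyte glucocorticoid receptor (GR, gene Nr3c1) set liver gene expression over the day, and sequenced polyA RNA of 90 livers of male C57BL/6J mice aged 12 weeks at the start. In the time series, GR LKO mice carried floxed Nr3c1 alleles and Alb-Cre, which deletes in hepatocytes and leaves GR in the other liver cells, and their WT controls carried the same floxed alleles without Cre. Livers were taken at zeitgeber times ZT0, ZT4, ZT8, ZT12, ZT16 and ZT20, with food given at ZT12, from mice whose intake had been lowered in steps to 40% less (3 per group) or from controls on chow that were fed only at night in the last week (ctrl., 3 or 4 per group). At ZT12, 2 further experiments compared mice labelled WT, with 3 per group: cal. res. against ctrl., and daily corticosterone (CORT) over 7 days against night-fed controls. The ctrl. livers of the diet experiment are titled AL while their treatment field gives night-restricted feeding, so their feeding state at ZT12 rests on that field. The CORT controls are labelled with night-restricted feeding alone. They are called vehicle here after the study's methods, and the labels do not show whether they were injected. The study gives the hour of injection both as ZT12 and as an hour before it, so the time from the last dose to sampling is not settled. Total counts per library were 14235473 to 20788575 in the cal. res. series, 10057544 to 17089004 in the ctrl. series, 36442195 to 39492146 in the diet experiment and 13739631 to 16077943 in the CORT experiment. Levels are CPM, counts divided by a library size that edgeR's TMM method sets within each of these tables, so values set side by side across tables are a description. Each test stays within 1 table unless it is a difference of differences or the diet comparison in the time series at ZT12. A gene was called when edgeR's quasi-likelihood test gave an adjusted p under 0.05 over all genes tested.

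Hepatocytes fold a large flow of secreted protein in the ER, and the unfolded protein response matches folding capacity to that flow. Its membrane sensors are IRE1, PERK and ATF6: IRE1 splices Xbp1 mRNA into the form that encodes the active factor, PERK slows translation and favours that of Atf4, and ATF6 is cut to release a transcription factor. In liver the response is known to follow feeding as well as stress, and gene counts as used here do not separate spliced from unspliced Xbp1.

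Hspa5 (ENSMUSG00000026864) encodes BiP, the main Hsp70 chaperone of the ER lumen, and lies at chr2:34772090-34776529 of GRCm38.p6. Hyou1 (ENSMUSG00000032115, chr9:44379490-44392369) encodes Grp170, a large relative of Hsp70 that exchanges the nucleotide on BiP. Dnajb9 (ENSMUSG00000014905, chr12:44205897-44210068) encodes the BiP co-chaperone ERdj4, and Sdf2l1 (ENSMUSG00000022769, chr16:17130138-17132383) an ER protein found in complexes with BiP. Pdia4 (ENSMUSG00000025823, chr6:47796141-47813512) encodes a protein disulfide isomerase. Creld2 (ENSMUSG00000023272, chr15:88819646-88826681) encodes an ER protein induced by ER stress that can be secreted. Herpud1 (ENSMUSG00000031770, chr8:94386429-94395371) encodes a membrane protein of the complex that sends misfolded proteins to degradation. Xbp1 (ENSMUSG00000020484, chr11:5520641-5525993), Atf4 (ENSMUSG00000042406, chr15:80255184-80257545) and Ddit3 (ENSMUSG00000025408, chr10:127290793-127296291), which encodes CHOP, are the transcription factor genes.

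The genotype labels were checked on Nr3c1. In cal. res. it lay at 70.1 to 113 CPM in the 18 WT libraries (median 93.9) and at 21.4 to 32.1 in the 18 GR LKO libraries (median 24.9). In ctrl. the 22 WT libraries held 73 to 118 CPM (median 87.3) and the 20 GR LKO libraries 16.2 to 29 (median 21.5). The genotypes did not overlap at any time, and the GR LKO mean was 23.9% to 30.8% of the WT mean. The 7 hepatocyte markers were all detected in each group, with Alb the most abundant, and their summed level was lowest in a ctrl. GR LKO library at ZT12 (65591 CPM) and highest in a cal. res. WT library at ZT12 (165889 CPM).

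Some libraries stood apart. The 8 exocrine pancreas markers summed to 733 CPM in cal. res. WT replicate 3 at ZT12 and to 383 CPM in ctrl. WT replicate 2 at ZT16, against at most 2.13 CPM in every other library. Ctrb1 and Cela2a led in the first (139 CPM each) and Cela2a in the second (83.2 CPM), and none of the 8 was at 0 in either. Counts of members called by time of day, step, genotype and genotype by diet are given below with and without these 2 libraries, and counts of other pathway genes and markers, and of the diet comparison in the time series, are given with them. In 8 of the 90 libraries the profile over genes with a mean of at least 5 CPM was nearest to another group than their own. Without these 8 the time of day tests called 10, 9, 9 and 9 members in cal. res. WT, cal. res. GR LKO, ctrl. WT and ctrl. GR LKO. Of all genes they called 8104 of 12858, 7405 of 12945, 5883 of 13074 and 5018 of 12535 in the same order. The last fit covered 5 times, since all ZT20 libraries of ctrl. GR LKO were among the 8.

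Over the day the chaperone and folding genes reached their highest mean at ZT16, the first sample after food, in both diets and genotypes, while Herpud1 was highest at ZT12 or, in ctrl. GR LKO, at ZT8. The test asked whether any of the 6 times differed within a diet and genotype. It called 10 of 10 members in cal. res. WT, where 64.3% of all genes were called, and 9 in cal. res. GR LKO, where 60.5% were, with Atf4 not called (adjusted p = 0.373, edgeR). In ctrl. it called 9 members in WT, without Xbp1 (edgeR adjusted p = 0.263), and 9 in GR LKO, without Ddit3 (edgeR adjusted p = 0.0639), against 50% and 42% of all genes. Ddit3 in ctrl. GR LKO was called without replicate 1 at ZT4 (edgeR adjusted p = 0.0202) or replicate 1 at ZT16 (0.0302), in a range of 0.0202 to 0.204 over all libraries left out. Without the libraries holding pancreas markers the counts were 10 in cal. res. WT, where 7562 of 12836 genes were called, and 9 in ctrl. WT, where 6021 of 12462 were.

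Hspa5 was highest at ZT16 in each series. In cal. res. WT it went from 271 ± 7.73 CPM (mean ± SD, n = 3) at ZT8 to 1289 ± 429 at ZT16 and back to 571 ± 101 at ZT20, a peak 4.77 times the lowest mean. The ZT16 libraries lay above all others of that series, and among the remaining neighbours in the order ZT20, ZT12, ZT0, ZT4 and ZT8 only the last pair did not overlap. The peak was 3.51 times the lowest mean in cal. res. GR LKO, 2.83 times in ctrl. WT and 4.55 times in ctrl. GR LKO, and ctrl. WT was the one series whose ZT16 libraries overlapped the next time, ZT0 (770.5 ± 259 CPM, n = 3). Hyou1, the partner of BiP, followed with a ZT16 mean of 325 CPM in cal. res. WT, 5.29 times its lowest mean at ZT8, and 4.79, 3.4 and 5.22 times in the other 3 series in the same order. No Hyou1 library at ZT16 overlapped the time with the next highest mean in any series, though in ctrl. WT ZT16 overlapped another time.

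The co-chaperone gene Dnajb9 had a flatter day, with ZT16 means of 75.2 ± 20.5 CPM in cal. res. WT and 88.8 ± 16.7 in ctrl. WT, 2.18 and 2.21 times the lowest means. Its ZT16 libraries overlapped those of the next time in all 4 series. Sdf2l1 moved over the widest range of the co-chaperone genes in cal. res., from 3.34 ± 0.339 CPM at ZT12 to 29.7 ± 13.3 at ZT16 in WT, 8.88 times, and from 2.82 ± 0.266 to 23.4 ± 6.73 in GR LKO, 8.28 times. In ctrl. the peak was 3.1 times the lowest mean in WT and 5.23 times in GR LKO. Sdf2l1 at ZT16 and ZT20 overlapped in each series, and in cal. res. both times lay above ZT0 without overlap. Pdia4 was also highest at ZT16 (223 ± 50.2 CPM in cal. res. WT) and next at ZT20 (207 ± 17), which overlapped except in ctrl. GR LKO (356 ± 35.8 and 238 ± 26.7, n = 3 each), with peaks 2.94, 2.06, 1.9 and 2.38 times the lowest mean in cal. res. WT, cal. res. GR LKO, ctrl. WT and ctrl. GR LKO.

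**Figure D1:**
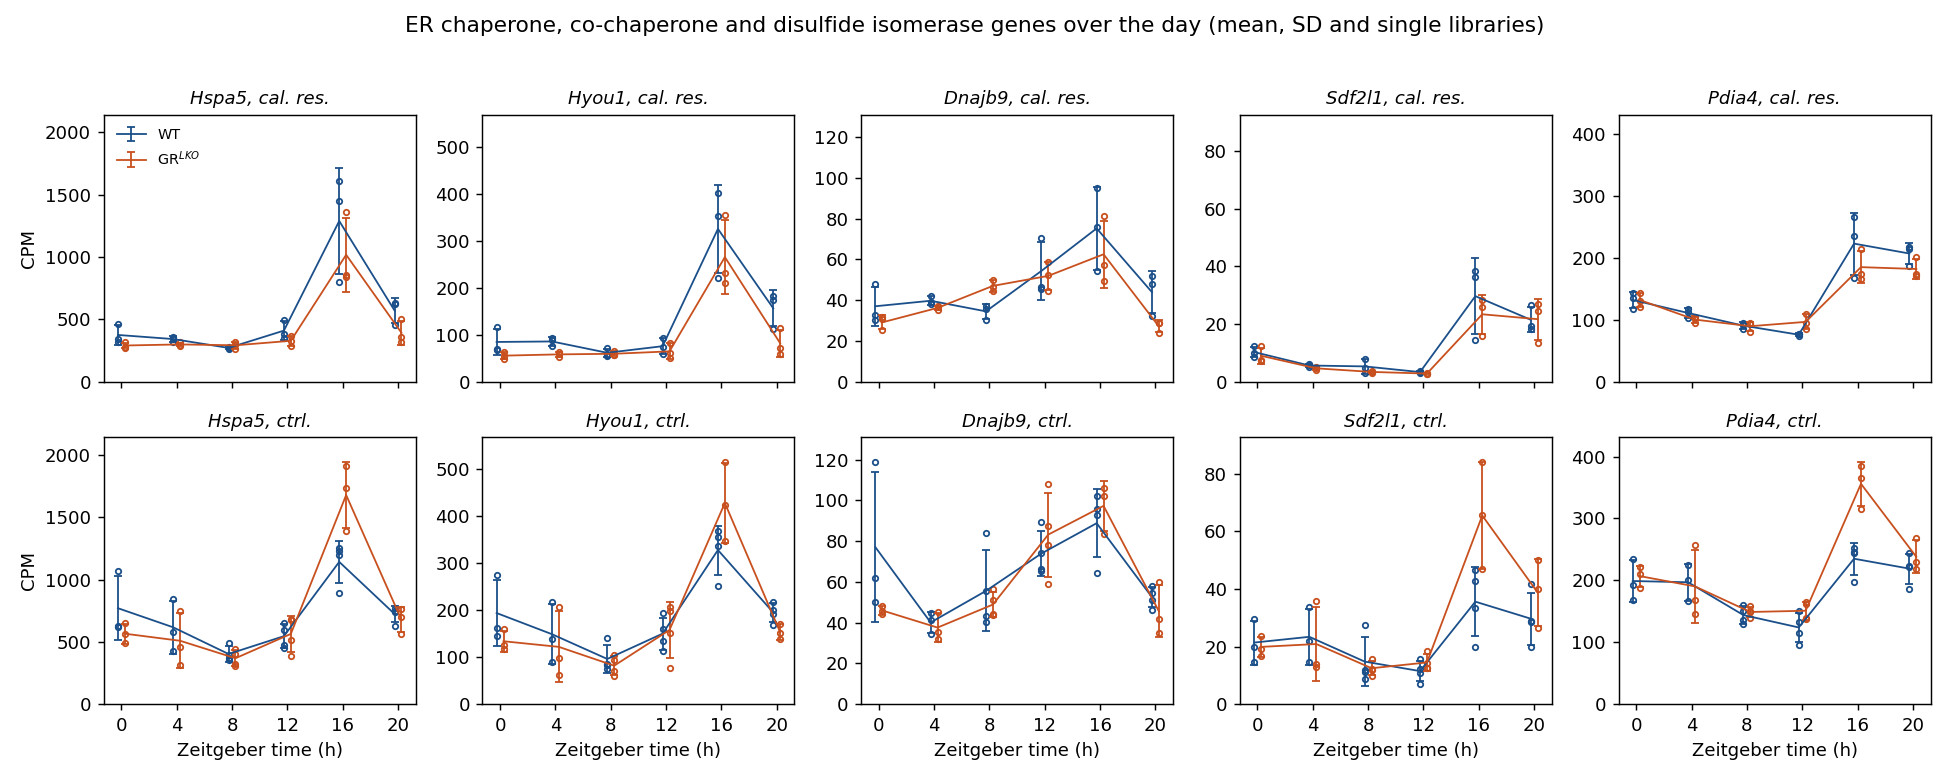
CPM (vertical axis) of Hspa5, Hyou1, Dnajb9, Sdf2l1 and Pdia4 against zeitgeber time in hours, for cal. res. (upper row) and ctrl. (lower row), with lines through the means, bars for the SD and open circles for single libraries of WT (blue) and GR LKO (orange). Each gene has its highest mean at ZT16 in each of the 4 series, such as 1289 CPM for Hspa5 in cal. res. WT.

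Creld2 had the largest ratio of peak to lowest mean of the 10 in each series. In cal. res. WT it stayed at 8.07 to 15 CPM from ZT0 to ZT12, reached 78.2 ± 34.7 at ZT16 and was back at 19.3 ± 5.52 by ZT20. The peak was 9.69 times the lowest mean there, 9.56 times in cal. res. GR LKO, 5.46 times in ctrl. WT and 11.2 times in ctrl. GR LKO, and at ZT16 no library overlapped those of ZT20 in any series. In ctrl. WT the ZT16 libraries overlapped another time.

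Herpud1, the degradation gene, ran on another schedule. In cal. res. WT it climbed through the fasted hours from 149 ± 6.39 CPM at ZT0 to 291 ± 42.2 at ZT4, 534 ± 34.9 at ZT8 and 857 ± 124 at ZT12, and stood at 187 ± 26.2 after food. ZT12, ZT8, ZT4 and ZT16 followed each other in that order with no overlap between neighbours, and ZT16, ZT20 and ZT0 overlapped. Without GR in hepatocytes the order of the first 4 times and their separation were the same, and the peak was 347 ± 18.1 CPM, 3.22 times the lowest mean against 5.77 times in WT. In ctrl. WT the high point was again ZT12 (519 ± 98 CPM, n = 4), next to ZT16 (407 ± 94.8) with overlap, and in ctrl. GR LKO the means of ZT8, ZT12 and ZT16 were 275, 269.8 and 250.2 CPM, all overlapping.

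Among the transcription factor genes, Xbp1 in cal. res. was lowest at ZT12, at 104 ± 21.7 CPM in WT and 118 ± 7.97 in GR LKO, and had 2 high points, ZT8 (169.9 and 196) and ZT16 (191 and 189). In ctrl. ZT12 was instead at or near the top, at 241 ± 37.6 CPM in WT and 259 ± 31.8 in GR LKO (n = 4 each). The time of day test did not call Xbp1 in ctrl. WT. Its peak there was 1.36 times the lowest mean, and all neighbours in the order of means overlapped. Atf4 ranged little, with peaks 1.47, 1.15, 1.69 and 1.4 times the lowest mean in cal. res. WT, cal. res. GR LKO, ctrl. WT and ctrl. GR LKO. In cal. res. WT its ZT16 libraries (130, 137 and 147 CPM) lay above all those of the next time, ZT20. Ddit3 was low throughout, between 3.33 CPM at ZT20 and 9.26 at ZT16 in cal. res. WT and between 4.59 at ZT4 and 8.1 at ZT16 in ctrl. WT.

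**Figure D2:**
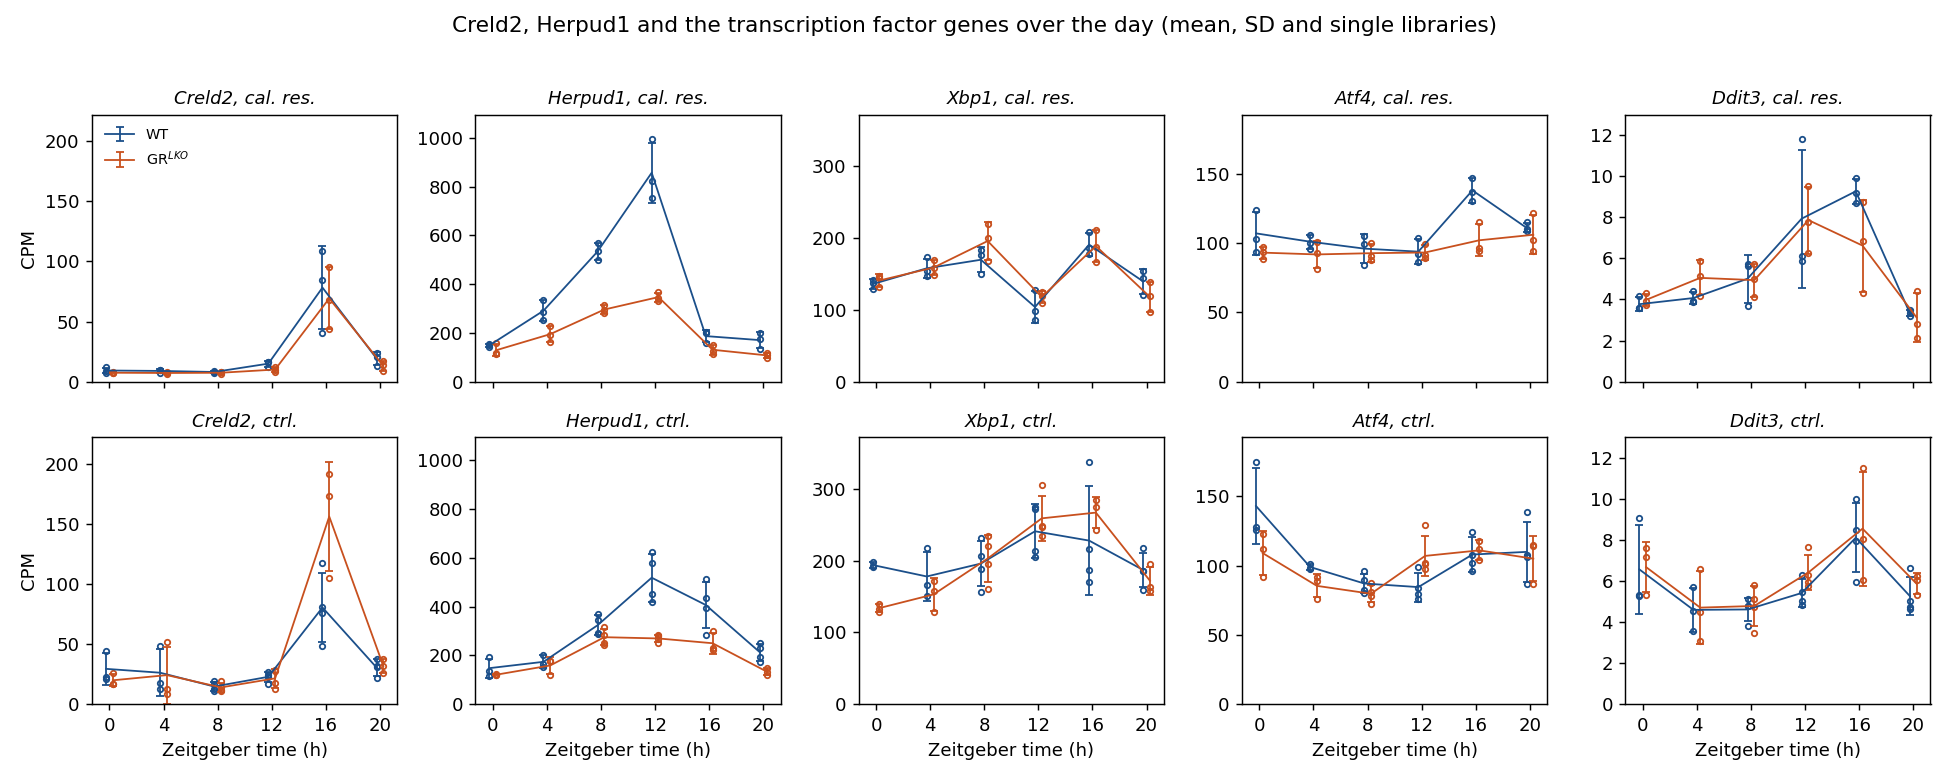
CPM (vertical axis) of Creld2, Herpud1, Xbp1, Atf4 and Ddit3 against zeitgeber time in hours, for cal. res. (upper row) and ctrl. (lower row), with lines through the means, bars for the SD and open circles for single libraries of WT (blue) and GR LKO (orange). Herpud1 in cal. res. peaks at ZT12, at 857 CPM in WT and 347 in GR LKO, and Creld2 at ZT16.

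From ZT12 to ZT16, the last sample before food and the first after it, Hspa5, Hyou1, Sdf2l1, Pdia4 and Creld2 rose 2.95- to 8.92-fold in cal. res. WT while Herpud1 fell, and Dnajb9 was not called. Of the 10 members 7 rose, where 21% of all genes did, and 1 fell, where 19% did. In cal. res. GR LKO 6 rose and 1 fell, against 20.1% and 17.8% of all genes. In ctrl. 5 members were called in WT, all of them higher, where 6.85% of all genes were higher and 6.6% lower, and 5 in GR LKO, again all higher, where 4.28% were higher and 4.78% lower. With the replicate number as a block, ctrl. GR LKO kept the call of Sdf2l1. It lost those of Hspa5, Hyou1, Pdia4 and Creld2 (edgeR adjusted p = 0.0769, 0.15, 0.0604 and 0.066). The share of members that rose lies above that of all genes in each series, and the share that fell does not. As the members were chosen with earlier results of these data known, this is a description only.

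Hspa5 in cal. res. WT held 386, 495 and 349 CPM at ZT12 and 1453, 803 and 1613 at ZT16. Every ZT16 library was above every ZT12 library, with replicate 2 the lowest at ZT16, and the rise was 3.16-fold (edgeR log2 fold change 1.66 ± 0.263 SE, adjusted p = 0.00291). It was 3.12-fold in cal. res. GR LKO, 2.1-fold in ctrl. WT and 2.99-fold in ctrl. GR LKO (edgeR log2 fold changes 1.64, 1.07 and 1.58, adjusted p = 0.000833, 0.00334 and 0.00542). Hyou1 rose 4.32-fold in cal. res. WT (edgeR log2 fold change 2.11 ± 0.252 SE, adjusted p = 0.000896), 4.14-fold in cal. res. GR LKO, 2.19-fold in ctrl. WT and 2.72-fold in ctrl. GR LKO. The last call (edgeR log2 fold change 1.44 ± 0.309 SE, adjusted p = 0.026) was lost without ctrl. GR LKO replicate 4 at ZT12 (edgeR adjusted p = 0.0636) or replicate 1, 2 or 3 at ZT16 (0.0537, 0.0757 and 0.103), which takes the count there from 5 to 4, in a range of 0.0125 to 0.103. Dnajb9 passed in none of the 4 series, with edgeR log2 fold changes of 0.48, 0.28, 0.27 and 0.23 in the same order.

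Sdf2l1 in cal. res. WT held 3.02, 3.7 and 3.31 CPM at ZT12 and 36.2, 14.4 and 38.5 at ZT16, without overlap. The rise of 8.92-fold (edgeR log2 fold change 3.16 ± 0.379 SE, adjusted p = 0.000927) was matched by 8.33-fold in GR LKO, and ctrl. WT and GR LKO rose 3.11- and 4.52-fold. Pdia4 rose 2.95-fold in cal. res. WT (edgeR log2 fold change 1.56 ± 0.163 SE, adjusted p = 0.000564), 1.92-fold in cal. res. GR LKO, 1.91-fold in ctrl. WT and 2.37-fold in ctrl. GR LKO. Creld2 went from 16, 16.7 and 12.2 CPM to 84.9, 40.6 and 109 in cal. res. WT, 5.27-fold (edgeR log2 fold change 2.40 ± 0.345 SE, adjusted p = 0.00197). All 3 libraries after food were above all 3 before it, and the rise was 6.92-fold in cal. res. GR LKO, 3.54-fold in ctrl. WT and 7.27-fold in ctrl. GR LKO.

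Herpud1 in cal. res. WT held 995, 755 and 822 CPM before food and 205, 157 and 198 after it. The groups were far apart, and the fall was 4.57-fold in WT (edgeR log2 fold change -2.19 ± 0.146 SE, adjusted p = 0.000153) and 2.63-fold in GR LKO (edgeR log2 fold change -1.40 ± 0.12 SE, adjusted p = 0.000199). In ctrl. WT the same step gave 624, 580.4, 453 and 420.5 and 513, 393, 286 and 437 CPM, which overlapped (edgeR log2 fold change -0.35 ± 0.185 SE, adjusted p = 0.244), and ctrl. GR LKO did not pass either (edgeR log2 fold change -0.10 ± 0.115 SE, adjusted p = 0.658). Xbp1 rose in cal. res. from 85.5, 128 and 98.4 to 186, 178 and 209 CPM in WT, 1.84-fold (edgeR log2 fold change 0.88 ± 0.154 SE, adjusted p = 0.00414), and 1.61-fold in GR LKO, and passed in neither ctrl. series, where log2 fold changes were -0.07 and 0.05. Atf4 rose in cal. res. WT (edgeR log2 fold change 0.56 ± 0.0968 SE, adjusted p = 0.00388), and was not called in cal. res. GR LKO (0.14), ctrl. WT (0.35) or ctrl. GR LKO (0.06). In ctrl. WT it was called without replicate 4 at ZT12 (edgeR log2 fold change 0.44, adjusted p = 0.032 in a range of 0.032 to 0.145). DESeq2 and edgeR with the replicate block also called Atf4 there. Ddit3 was called in none of the 4 by edgeR's main fit, and was called without cal. res. WT replicate 1 at ZT12, its highest library there at 11.8 CPM (edgeR log2 fold change 0.62, adjusted p = 0.021 in a range of 0.021 to 0.889), and without ctrl. WT replicate 3 at ZT16 (edgeR log2 fold change 0.71, adjusted p = 0.0285 in a range of 0.0285 to 0.128). In ctrl. WT DESeq2 and edgeR with library totals also called Ddit3. Without the libraries holding pancreas markers 8 members were called in cal. res. WT, where 3584 of 11983 genes were, and 5 in ctrl. WT, where 1145 of 11588 were. With library totals in place of TMM, which moves the median of all genes from 0.0118 to 0.181 in cal. res. WT, the share of called genes that were higher went from 52.5% to 72.4% there, from 50.9% to 64.5% in ctrl. WT, from 53% to 61.4% in cal. res. GR LKO and from 47.2% to 37.7% in ctrl. GR LKO.

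Counts for other genes of the pathway stand beside 21% of all genes higher and 19% lower in cal. res. WT, 20.1% and 17.8% in cal. res. GR LKO, 6.85% and 6.6% in ctrl. WT and 4.28% and 4.78% in ctrl. GR LKO. Of the ER chaperone and folding enzyme list, cal. res. WT had 7 higher and 0 lower of 10 tested, cal. res. GR LKO 8 higher and 0 lower of 10 tested, ctrl. WT 7 higher and 0 lower of 10 tested and ctrl. GR LKO 7 higher and 0 lower of 10 tested. Manf, an ER protein that binds BiP, rose the most in that list, by 2.33 ± 0.291 SE on the edgeR log2 scale in cal. res. WT and 1.12 ± 0.148 SE in ctrl. WT. The median log2 fold changes of the list were 0.88 and 0.46, against 0.012 and -0.0076 over all genes tested. Of the ER-associated degradation list cal. res. WT had 3 higher and 1 lower of 7 tested and ctrl. WT 3 higher and 0 lower of 8 tested, led by the ubiquitin ligase gene Syvn1 (1.45 ± 0.259 SE and 1.02 ± 0.138 SE), with Os9 lower in cal. res. WT (-0.30 ± 0.0868 SE). Of the sensors and proteases, cal. res. WT had 0 higher and 3 lower of 6 tested, Atf6 the most (-0.47 ± 0.116 SE), and ctrl. WT 0 higher and 0 lower of 6 tested. The ATF4 and CHOP targets had 1 higher and 4 lower of 7 tested in cal. res. WT, with Atf5 at 1.63 ± 0.17 SE and Chac1 at -2.49 ± 0.566 SE, and 1 higher and 2 lower of 7 tested in ctrl. WT, with Atf3 at 3.92 ± 0.846 SE and Chac1 at -2.62 ± 0.392 SE. The cytosolic heat shock list had 5 higher and 0 lower of 7 tested in cal. res. WT and 6 higher and 0 lower of 8 tested in ctrl. WT, and Hsp90aa1 rose the most in both (2.50 ± 0.145 SE in cal. res. WT).

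Cell type markers moved with this step in cal. res. WT. All 6 Kupffer cell and myeloid markers were higher at ZT16, their summed level going from 38.8, 62.8 and 45.6 to 87.6, 122 and 112 CPM with Clec4f the most abundant and none at 0. Of the 7 hepatocyte markers 5 were lower, the sum going from 160946, 161203 and 165889 to 133854, 141085 and 134889 CPM, and in ctrl. WT 3 of 5 endothelial markers were higher (78, 65.8, 69 and 76 against 94.2, 97, 92 and 96.2 CPM, Clec4g the most abundant, none at 0). Of 5 stellate markers 2 were higher there (129.6, 109, 92.4 and 125 against 202, 151, 213 and 186 CPM, Dcn the most abundant, none at 0), and in cal. res. WT the cholangiocyte sum rose without overlap (26.4, 31.2 and 28.9 to 33.5, 39.2 and 36.6 CPM, mostly Spp1, 1 of 5 at 0 in each group) with 0 of 3 tested called by edgeR. In cal. res. GR LKO it rose as well (31.4, 32.4 and 31.7 to 42, 34.6 and 37.8 CPM, mostly Spp1, 1 of 5 at 0 in each group), with 1 of 4 tested higher. The neutrophil sum, with 0 of its markers tested, rose without overlap from 0, 0 and 0.0562 to 0.373, 0.216 and 0.825 CPM in cal. res. WT (S100a8 the most abundant before and S100a9 after, 3 and 1 of 4 at 0) and from 0.461, 0 and 0.305 to 0.869, 0.947 and 1.01 CPM in cal. res. GR LKO (S100a9 the most abundant, 1 of 4 at 0 in each group). Their part in the result was not tested, and in bulk RNA fewer cells of a type and less RNA per cell cannot be told apart.

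Diets in the time series were sequenced under different library number series, so their steps were compared as a difference of differences. In WT the step by diet called 1 of 10 members, Herpud1 (edgeR log2 fold change -1.88 ± 0.269 SE, adjusted p = 0.00104). In this fit 14.8% of all genes were called, so the count does not exceed the background. That reading holds for this fit only, since both counts moved in the fits given below. The log2 fold change of Herpud1 was -2.19 in cal. res. WT and -0.35 in ctrl. WT, a difference of 3.67-fold between the diets. The other 9 were not called, with log2 fold changes from -0.38 (Ddit3) to 1.49 (Sdf2l1). More were called without single libraries: 5 without cal. res. WT replicate 2 at ZT16 (Hspa5, Hyou1, Sdf2l1 and Pdia4 joined, with edgeR adjusted p = 0.0468, 0.0215, 0.0196 and 0.028), and 4 without ctrl. WT replicate 4 at ZT12 (Hyou1, Sdf2l1 and Pdia4, 0.0419, 0.0494 and 0.0447). Without cal. res. WT replicate 2 at ZT12 3 were called (Hyou1 and Xbp1 joined, edgeR adjusted p = 0.0461 and 0.0411), and without ctrl. WT replicate 3 at ZT16 2 were (Xbp1, 0.00604). The adjusted p over all libraries left out ranged over 0.0468 to 0.488 for Hspa5, 0.0215 to 0.154 for Hyou1, 0.0196 to 0.165 for Sdf2l1, 0.028 to 0.224 for Pdia4 and 0.00604 to 0.13 for Xbp1. The number of all genes called by edgeR ranged over 1181 to 1785 across these fits. DESeq2 called 4 members and edgeR without TMM 4, and the count over all genes stayed within 1.5 times that of the main fit in both. With library totals the median of all genes went from -0.0296 to 0.12 and the share of called genes that were higher went from 47.7% to 75.4%. Without both libraries holding pancreas markers the count was again 1, Herpud1 (edgeR log2 fold change -1.92 ± 0.317 SE, adjusted p = 0.00616). In that fit 1102 of 12359 genes were called, so 1 of 10 members is near the background there.

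The step by genotype asked whether loss of GR changed the move from ZT12 to ZT16. In cal. res. edgeR called 0 of 10 members, where 3.15% of all genes were called, with 3 members at an unadjusted p under 0.05 and 1 called by DESeq2. Herpud1 came nearest (edgeR log2 fold change 0.79 ± 0.194 SE, adjusted p = 0.0519), and it was called without cal. res. GR LKO replicate 1 at ZT16 (edgeR adjusted p = 0.049 in a range of 0.049 to 0.106). In ctrl. edgeR called 0 of 10 members and 0% of all genes, 0 of 12122, with 1 member and 741 genes at an unadjusted p under 0.05, and DESeq2 called 0 members and 20 genes. Creld2, the member with an unadjusted p under 0.05, had a log2 fold change of 1.03. Both counts were also 0 without the libraries holding pancreas markers, and with library totals the median of all genes went from -0.00931 to -0.106 in cal. res. and the share of called genes that were higher went from 48.2% to 30.5%.

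Loss of GR in hepatocytes lowered Herpud1 at the end of the fasted hours, and few other members were called at any time. Over 6 times the genotype test called 2 of 60 member tests in cal. res., both Herpud1, and 3 of 60 in ctrl., Herpud1, Xbp1 and Pdia4 once each. The background in cal. res. was 0.502%, 0.69%, 2.55%, 15.3%, 4.54% and 1.47% of all genes from ZT0 to ZT20, and in ctrl. 0.536%, 0.195%, 1.43%, 2.08%, 1.98% and 0.42%. At ZT12 in cal. res., where the background is highest, 1 of 10 members does not exceed it in the fit of all libraries. The background there went from 1795 genes to between 899 and 1329 when any 1 library was left out. It was 1032 of 12008 genes without the library holding pancreas markers, and 1 of 10 members is near that share.

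Herpud1 in cal. res. at ZT12 held 995, 755 and 822 CPM in WT and 332, 342 and 367 in GR LKO. The lowest WT library was more than 2 times the highest GR LKO library, and the difference was 2.48-fold (edgeR log2 fold change -1.31 ± 0.121 SE, adjusted p = 0.000992). At ZT8 the values were 537, 568 and 498 CPM in WT and 315, 280.1 and 292 in GR LKO, without overlap (edgeR log2 fold change -0.85 ± 0.0924 SE, adjusted p = 0.00785), and this call was lost without GR LKO replicate 3 (adjusted p = 0.0533 in a range of 0.00904 to 0.0533), which takes the count from 2 to 1. In ctrl. at ZT12 WT held 624, 580.4, 453 and 420.5 CPM and GR LKO 282, 253, 266 and 279. All 4 WT libraries lay above all 4 GR LKO libraries (edgeR log2 fold change -0.94 ± 0.128 SE, adjusted p = 0.00647). Herpud1 also had a log2 fold change below 0 at each of the other 9 times and diets, from -0.13 at ZT4 to -0.70 at ZT16, both in ctrl. None of these 9 was called by edgeR's fit of each time, while DESeq2 and 1 fit over the diet each called 5 of them, ZT4, ZT16 and ZT20 in cal. res. and ZT16 and ZT20 in ctrl. The ZT16 value in ctrl. was called without WT replicate 3 (edgeR log2 fold change -0.84, adjusted p = 0.0408 in a range of 0.0408 to 0.267).

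Pdia4 in ctrl. at ZT16 held 246, 197, 245 and 252 CPM in WT and 316, 366 and 385 in GR LKO. The GR LKO libraries were all higher, with WT replicate 2, which holds pancreas markers, the lowest (edgeR log2 fold change 0.60 ± 0.109 SE, adjusted p = 0.0379), and the call was lost without that library (edgeR log2 fold change 0.52 ± 0.0914 SE, adjusted p = 0.0631) and without each of the other 6 (adjusted p = 0.0733, 0.0633 and 0.0773 without WT replicates 1, 3 and 4, and 0.055, 0.115 and 0.115 without GR LKO replicates 1, 2 and 3). Xbp1 in ctrl. at ZT0 held 192, 198 and 191 CPM in WT and 129, 133 and 139.9 in GR LKO. The WT libraries were all higher (edgeR log2 fold change -0.54 ± 0.0772 SE, adjusted p = 0.0442), and this call too was lost without each of the 6 libraries (adjusted p = 0.122, 0.149 and 0.0514 without WT replicates 1, 2 and 3, and 0.195, 0.158 and 0.13 without GR LKO replicates 1, 2 and 3). Without single libraries 2 members joined in cal. res.: Pdia4 at ZT12 without GR LKO replicate 1 (edgeR adjusted p = 0.0495 in a range of 0.0495 to 0.191) and Atf4 at ZT16 without GR LKO replicate 2 (0.0459 in a range of 0.0459 to 0.194).

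The remaining members crossed between genotypes. Hspa5 ran from a log2 fold change of -0.53 at ZT20 in cal. res. to 0.55 at ZT16 in ctrl., Creld2 from -0.58 at ZT0 to 0.95 at ZT16, both in ctrl., and Hyou1 from -0.92 at ZT20 in cal. res. to 0.38 at ZT16 in ctrl. None of these was called by edgeR's fit of each time. DESeq2 called Hyou1 at ZT4 and ZT20 (adjusted p = 0.000993 and 0.00775) and Dnajb9 at ZT8 and ZT20 (DESeq2 adjusted p = 0.0105 and 0.0155) in cal. res., and Hspa5, Creld2 and Sdf2l1 at ZT16 in ctrl. (DESeq2 adjusted p = 0.00666, 0.0176 and 0.0446). It also called Pdia4 at ZT12 and Atf4 at ZT16 in cal. res. With 1 fit over the diet Hyou1 and Dnajb9 at ZT20, Pdia4 at ZT12 and Atf4 at ZT16 in cal. res. were called as well. The sums of 2 and 3 calls became 11 and 8 with DESeq2, the sum in cal. res. became 4 without TMM and 9 with 1 fit over the diet. Calls over all genes rose as well at each time with DESeq2, and in cal. res. with 1 fit over the diet. At ZT20 in cal. res. they went from 178 to 686 and 1127. Without TMM they went from 308 to 343 at ZT8 and from 1795 to 2116 at ZT12, the times at which members were added. At ZT12 in cal. res. library totals moved the median of all genes from -0.0041 to 0.156 and the share of called genes that were higher from 48.6% to 77.2%. Without the libraries holding pancreas markers the sums were 2 in cal. res., with Herpud1 at ZT12 having an edgeR log2 fold change of -1.34 ± 0.143 SE, adjusted p = 0.00527, and 2 in ctrl.

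Markers moved with genotype in cal. res. at ZT12. Of 7 hepatocyte markers 4 were lower in GR LKO (160946, 161203 and 165889 CPM summed in WT, 120995, 129239 and 110933 in GR LKO, Alb the most abundant), and 3 of 6 Kupffer cell and myeloid markers were higher (38.8, 62.8 and 45.6 against 107, 89.3 and 112 CPM, Clec4f the most abundant). Of 5 endothelial markers 1 was higher, and their sum did not overlap between the genotypes (151, 140.4 and 166 against 195, 183 and 206 CPM, Clec4g the most abundant), nor did it at ZT8, where edgeR called 0 of the 5 (139, 149 and 143 against 172, 181 and 189 CPM, Clec4g the most abundant in WT and Kdr in GR LKO). At ZT8 the hepatocyte sum did not overlap either (134910, 115661 and 111637 against 108364, 102647 and 104461 CPM, 1 of 7 lower), and at ZT12 the cholangiocyte sum was 26.4, 31.2 and 28.9 against 31.4, 32.4 and 31.7 CPM (mostly Spp1, 1 of 3 tested lower, 1 of the 5 at 0 in each group). None of the hepatocyte, Kupffer cell and endothelial markers was at 0. In ctrl. at ZT12 3 of 7 hepatocyte markers were lower (81563, 97028, 81164 and 90706 CPM in WT, 68702, 65591, 72650 and 84180 in GR LKO). At ZT0 and ZT16 in ctrl., where Xbp1 and Pdia4 were called, the hepatocyte sum was lower in GR LKO without overlap (84354, 109852 and 82390 against 73294, 68075 and 82168 CPM and 92802, 95131, 93063 and 86623 against 81833, 70163 and 83322 CPM, mostly Alb, none at 0), as was the endothelial sum at ZT16 (94.2, 97, 92 and 96.2 against 89, 72.4 and 89.2 CPM, Clec4g the most abundant, none at 0), with 0 markers of these lists called by edgeR. Their part in the result was not tested.

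Whether the genotype effect at ZT12 depended on diet was tested as a difference of differences. edgeR called 0 of 10 members, where 1.01% of all genes were called, with 1 member at an unadjusted p under 0.05, and DESeq2 called 0. Herpud1, lower in GR LKO in both diets, had a difference of -0.35 ± 0.186 SE on edgeR's log2 scale, adjusted p = 0.419. The count was also 0 without cal. res. WT replicate 3, which holds pancreas markers.

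In the diet experiment at ZT12, before food, cal. res. livers held more Herpud1, Creld2 and Ddit3 RNA and less Xbp1 and Sdf2l1 RNA than ctrl. livers. Of the 10 members 7 were higher, where 23.5% of all genes were, and 2 were lower, where 23.6% were. The share that was higher lies above the background, and the share that was lower does not, for members chosen with earlier results of these data known.

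Hspa5 held 275, 294 and 308 CPM in ctrl. and 448, 370.1 and 402 in cal. res. All 3 cal. res. libraries were higher, 1.39-fold on average (edgeR log2 fold change 0.48 ± 0.093 SE, adjusted p = 0.00558). Hyou1 rose 1.39-fold (edgeR log2 fold change 0.47 ± 0.122 SE, adjusted p = 0.0165), from 57.7, 62.2 and 71.3 to 103, 83 and 79.8 CPM without overlap, and Dnajb9 1.34-fold (edgeR log2 fold change 0.42 ± 0.102 SE, adjusted p = 0.0128), from 39.9, 39.3 and 45.5 to 60.4, 48.8 and 58.1 CPM. Sdf2l1 went the other way, at 8.22, 8.75 and 6.51 CPM in ctrl. and 2.61, 2.68 and 2.76 in cal. res. The cal. res. libraries were nearly equal and all lower, and the fall was 2.92-fold (edgeR log2 fold change -1.54 ± 0.146 SE, adjusted p = 0.000406). Pdia4 was the member not called, at 101, 104 and 99.8 and 117, 96.5 and 93 CPM with overlap (edgeR log2 fold change 0.01 ± 0.0973 SE, adjusted p = 0.958). Creld2 rose 1.6-fold, from 11.5, 11.7 and 10.5 to 17.1, 18.1 and 18.6 CPM without overlap (edgeR log2 fold change 0.67 ± 0.0821 SE, adjusted p = 0.000912).

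Herpud1 held 291, 245 and 351 CPM in ctrl. and 591, 634 and 775 in cal. res. The groups did not overlap, and the rise was 2.26-fold (edgeR log2 fold change 1.17 ± 0.157 SE, adjusted p = 0.0013). Xbp1 held 256, 262 and 214 CPM in ctrl. and 105, 79.7 and 66.1 in cal. res. Each cal. res. library was below each ctrl. library, a fall of 2.92-fold (edgeR log2 fold change -1.54 ± 0.174 SE, adjusted p = 0.00069). Atf4 rose 1.32-fold (edgeR log2 fold change 0.40 ± 0.1 SE, adjusted p = 0.015), from 57.2, 51.6 and 57.6 to 64, 73.9 and 81.4 CPM. Ddit3, the gene of CHOP, rose 2.29-fold, from 3.71, 3.4 and 4.48 to 8.17, 8.57 and 9.81 CPM without overlap (edgeR log2 fold change 1.20 ± 0.142 SE, adjusted p = 0.000837).

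Calls of 3 members rested on single ctrl. libraries. Hyou1 was lost without replicate 1 (edgeR adjusted p = 0.0636) or 2 (0.0607) in a range of 0.0177 to 0.0636, Dnajb9 likewise (0.0512 and 0.0537, range 0.0104 to 0.0537), and Atf4 without replicate 2 (0.062, range 0.0034 to 0.062), so that the count fell from 9 to as low as 6. Atf4 was also not called with library totals in place of TMM, which takes the median of all genes to -0.122 and the share of called genes that were higher from 49.9% to 35.3%. In the time series at ZT12, where diet and library number series cannot be told apart, 6 members were called, 1 higher and 5 lower. Of 11550 genes tested there 2162 were higher and 2236 lower. The share of members that was lower lies above that background and the share that was higher does not, the reverse of the diet experiment. The direction was turned for Hspa5, Hyou1, Dnajb9, Pdia4 and Creld2 (edgeR log2 fold changes -0.43 (adjusted p = 0.0779), -1.01 (adjusted p = 0.0069), -0.46 (adjusted p = 0.0804), -0.72 (adjusted p = 0.00588) and -0.62 (adjusted p = 0.0249)), while Sdf2l1, Herpud1, Xbp1, Atf4 and Ddit3 kept theirs. Atf4 and Ddit3 were not called there (edgeR adjusted p = 0.364 and 0.147).

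Counts for other pathway genes stand beside 23.5% of all genes higher and 23.6% lower with diet. The sensors and proteases had 4 higher and 2 lower of 6 tested. Atf6 rose the most (1.05 ± 0.182 SE on the edgeR log2 scale), Ern1, which encodes IRE1, by 0.70 and Eif2ak3, which encodes PERK, by 0.74, and Creb3l3, a liver relative of Atf6, fell (-0.60 ± 0.085 SE). The ER chaperone and folding list had 2 higher and 1 lower of 10 tested, with Dnajc3 at 0.64 ± 0.0873 SE and Dnajb11 at -0.33 ± 0.0673 SE, and its median of 0.06 lay close to that of all genes. ER-associated degradation had 3 higher and 1 lower of 8 tested, with Edem1 at 0.64 ± 0.0888 SE and Derl3 at -3.71 ± 0.544 SE. The ATF4 and CHOP targets had 3 higher and 0 lower of 8 tested (Atf3 3.92 ± 1.07 SE), and cytosolic heat shock 6 higher and 0 lower of 8 tested (Hspa1a 1.56 ± 0.326 SE, median 0.72).

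Markers moved with diet as well. Of 5 endothelial markers 4 were higher in cal. res. (105, 134 and 136 CPM summed in ctrl., 177, 177 and 204 in cal. res., Kdr the most abundant in ctrl. and Clec4g in cal. res.), of 7 hepatocyte markers 3 were higher (84277, 84914 and 89691 against 152493, 154343 and 158006 CPM, mostly Alb), and neither list had a marker at 0. Of the 6 B and plasma cell markers 4 were tested and 2 were lower (3.81, 5.26 and 2.93 against 1.9, 1.43 and 1.97 CPM, Jchain the most abundant, Tnfrsf17 at 0 in both groups). Cholangiocyte and stellate cell lists had 2 higher and 0 lower of 4 tested and 2 higher and 1 lower of 5 tested. The stellate sum did not overlap (212, 219.8 and 178 against 294, 266 and 296 CPM, Dcn the most abundant, none at 0), nor did the neutrophil sum (0.326, 0.655 and 0.633 against 0.17, 0.234 and 0.273 CPM, S100a9 the most abundant, 1 and 2 of 4 at 0, 0 tested). Their part in the result was not tested.

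CORT at ZT12 moved Herpud1 up and 4 other members down against the 3 controls. Of the 10 members 1 rose, where 4.47% of all genes did, and 4 fell, where 3.64% did. The share that fell lies above the background, for members chosen with earlier results of these data known.

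Hspa5 held 956, 1804 and 1070 CPM with vehicle and 566, 525 and 634 with CORT. Vehicle replicate 2 was the highest, the groups did not overlap, and the fall was 2.22-fold (edgeR log2 fold change -1.15 ± 0.24 SE, adjusted p = 0.0308). The vehicle mean of 1276 CPM stood beside 292 in ctrl. livers of the diet experiment and 546 in ctrl. WT of the time series at the same hour. Hyou1 (382 against 63.7 and 150.2), Sdf2l1 (58.4, 7.83 and 11.5), Pdia4 (289.8, 102 and 124) and Creld2 (108, 11.2 and 22.8) were likewise higher with vehicle. CORT means of Hspa5 and these genes (575, 182, 17.6, 128 and 38.1) also lay above both other controls. Atf4 with CORT (69.1) lay between them (55.5 and 84.5). Vehicle means of Dnajb9, Herpud1 and Xbp1 were not above both. These differences across experiments were not tested. Hyou1 was not called, at 312, 496 and 339 CPM with vehicle and 204, 119 and 223 with CORT (edgeR log2 fold change -1.07 ± 0.27 SE, adjusted p = 0.0559), nor was Dnajb9, at 0.09. Sdf2l1 fell 3.31-fold (edgeR log2 fold change -1.73 ± 0.322 SE, adjusted p = 0.0224), from 34, 78 and 63.2 to 14.2, 23 and 15.6 CPM, and Pdia4 2.26-fold (edgeR log2 fold change -1.17 ± 0.242 SE, adjusted p = 0.0302), from 195, 381 and 293 to 114, 152 and 119 CPM. Neither gene overlapped between the groups. Creld2, at 72.7, 173 and 79 CPM with vehicle and 39.5, 24.8 and 50 with CORT, was not called (edgeR log2 fold change -1.51 ± 0.389 SE, adjusted p = 0.0593).

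Herpud1 held 370.2, 324 and 259 CPM with vehicle and 1048, 926 and 1021 with CORT. Every CORT library was more than 2 times every vehicle library, and the rise was 3.14-fold (edgeR log2 fold change 1.65 ± 0.146 SE, adjusted p = 0.00199). Xbp1 was not called, at 198, 214 and 247 and 170.2, 127 and 184 CPM (edgeR log2 fold change -0.45 ± 0.158 SE, adjusted p = 0.124). Atf4 fell 1.41-fold, from 88.8, 100.4 and 103 to 69.4, 72.6 and 65.4 CPM without overlap (edgeR log2 fold change -0.49 ± 0.0928 SE, adjusted p = 0.0227). Ddit3 was not called, at 5.96, 6.6 and 5.5 and 3.33, 3.32 and 5.86 CPM with overlap (edgeR log2 fold change -0.53 ± 0.264 SE, adjusted p = 0.259).

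**Figure D3:**
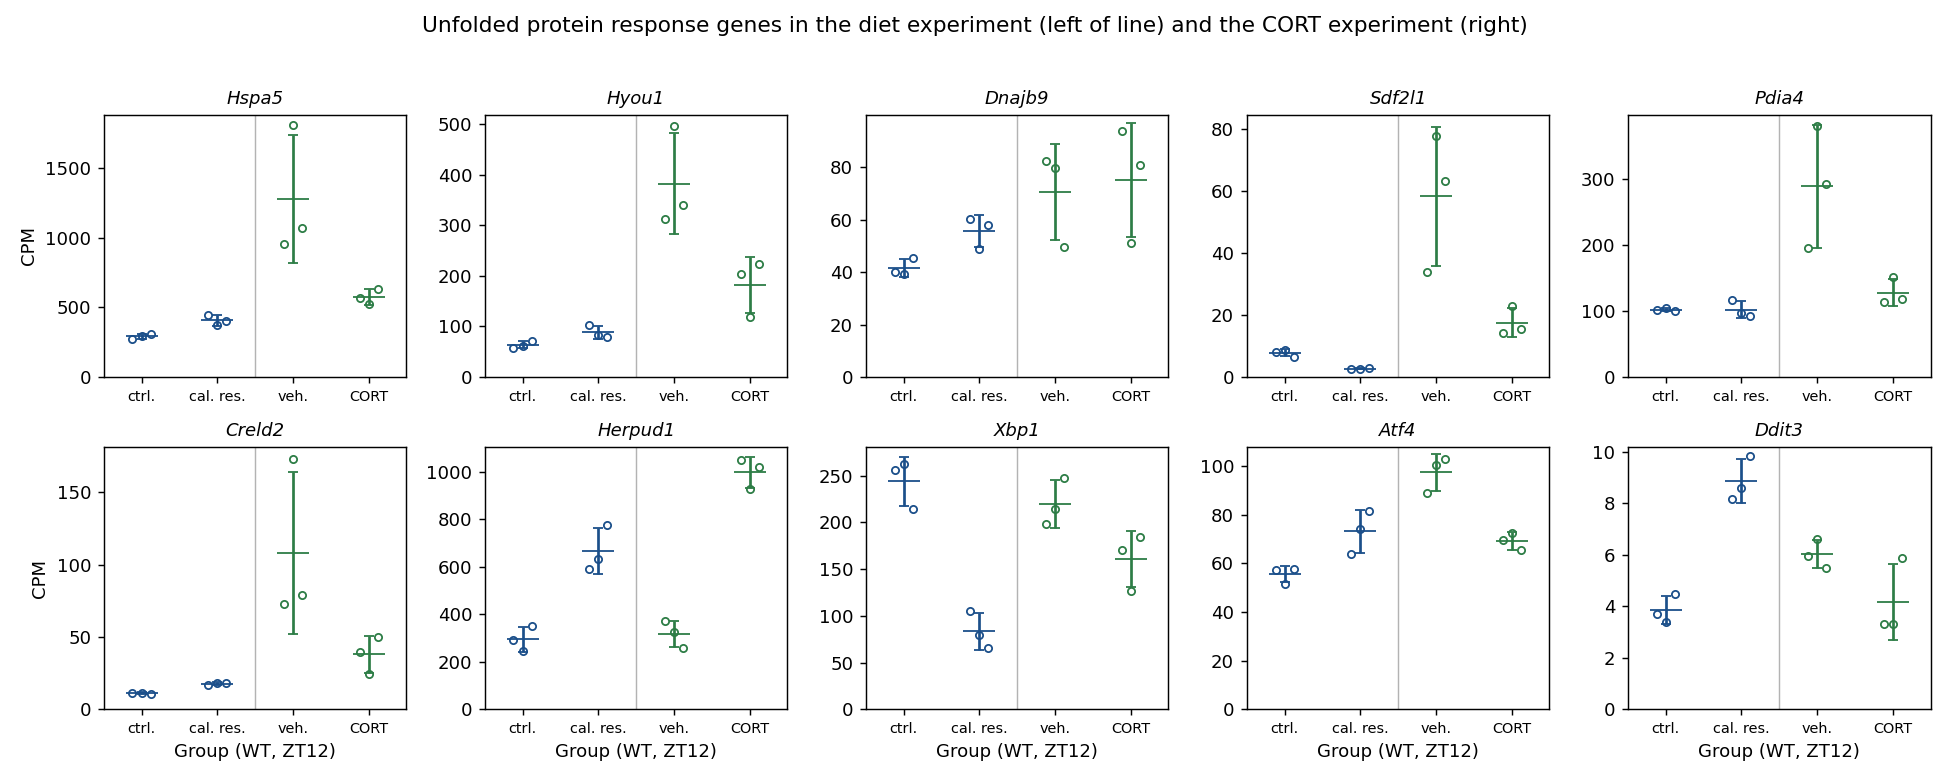
CPM (vertical axis) of the 10 genes in WT livers at ZT12, for ctrl. and cal. res. of the diet experiment (blue) and vehicle (veh.) and CORT of the CORT experiment (green), with open circles for single libraries and bars for the mean and SD of 3. Herpud1 is higher in every cal. res. and every CORT library than in their controls, with means of 667 and 998 CPM.

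Herpud1 was called whichever of the 6 libraries was left out, and the falls were not. The count of 5 became 5, 2 and 1 without vehicle replicates 1, 2 and 3 and 1, 4 and 1 without CORT replicates 1, 2 and 3. The edgeR adjusted p ranged over 0.04 to 0.0954 for Hspa5, 0.0114 to 0.0813 for Sdf2l1, 0.0173 to 0.0996 for Pdia4 and 0.0263 to 0.0986 for Atf4 across these fits. Library totals in place of TMM moved the share of called genes that were higher from 55.1% to 38.8%, with the median of all genes at -0.1, and left 5 members called. DESeq2 called 7, with Hyou1 and Creld2 added, and 1300 of 12075 genes. Without the filter on low counts edgeR called 6, with Hyou1 added, and 856 of 16603 genes. The replicate block left 3, without Hspa5 and Atf4 (edgeR adjusted p = 0.0761 and 0.0631), and 534 of 11523 genes.

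Beside 4.47% of all genes higher and 3.64% lower, the sensors and proteases had 0 higher and 0 lower of 6 tested, with 0 called by edgeR. The chaperone and folding list had 0 higher and 1 lower of 10 tested, Manf (-1.29 ± 0.276 SE on the edgeR log2 scale), and a median of -0.34. ER-associated degradation had 0 higher and 1 lower of 8 tested, Syvn1 (-1.34 ± 0.282 SE). The ATF4 and CHOP targets had 4 higher and 0 lower of 7 tested, Chac1 the most (3.89 ± 0.355 SE), and cytosolic heat shock had 0 higher and 2 lower of 8 tested, Hsp90aa1 the most (-1.33 ± 0.179 SE). Among markers 2 of 6 for Kupffer and myeloid cells were higher with CORT (61.9, 79 and 83.3 against 88.3, 122 and 102 CPM summed, Clec4f the most abundant, none at 0) and 1 of 5 endothelial markers was lower (81.8, 87.8 and 107 against 67.3, 73.2 and 81.4 CPM, Clec4g the most abundant, none at 0). With 0 markers called by edgeR, sums also did not overlap for erythrocyte (529, 481 and 595 against 256, 414 and 232 CPM, Hbb-bs the most abundant, none at 0) and neutrophil markers (0.0718, 0.622 and 0.618 against 2.27, 1.99 and 1.57 CPM, S100a9 the most abundant, 1 of 4 at 0 in each group). Their part in the result was not tested.

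Likeness of daily profiles was measured as the root mean square difference of log2 CPM means from those of Hspa5 over 24 time series groups, each centred within its diet, among 8636 genes with at least 5 CPM in both diets. The 5 nearest genes were Hyou1 (0.157), Manf (0.163), Hapln4 (0.171), Syvn1 (0.183) and Stip1 (0.195). Of the other members Pdia4 stood at rank 117 (0.398), Creld2 at 163 (0.415), Dnajb9 at 358 (0.468), Ddit3 at 859 (0.524), Atf4 at 886 (0.526), Sdf2l1 at 1497 (0.566), Xbp1 at 2090 (0.594) and Herpud1 at 8352 (1.07). A flat gene would stand at 0.636, the root mean square of the profile of Hspa5 itself. Values near it therefore do not separate likeness from a flat day, as for Atf4, whose own profile had 0.193.

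The promoters of Hspa5, Creld2 and Herpud1 are shown because each holds at least 1 of the elements searched. RefSeq promoter sequences (GRCm38.p6, 250 bases before to 50 after the start) were found for 9 members, and 32851 promoters were searched on both strands. The ER stress response element, CCAAT and CCACG with 9 bases between, was in Hspa5 (chr2:34772025-34772043) and, on the minus strand, in Creld2 (chr15:88819520-88819538), and in 39 promoters in all, 0.119%. Element II, ATTGG and CCACG with 1 base between, was in Herpud1 (chr8:94386377-94386387) and in 12 promoters, 0.0365%. TGACGTGG, the unfolded protein response element, was in 0 members and in 222 promoters, 0.676%. TGATGNAAN, the composite element of C/EBP and ATF factors, was in Herpud1 on the minus strand (chr8:94386316-94386324) and in 1299 promoters, 3.95%. A match describes these letters only. Capitals mark the matches in the plus strands of chr2:34771840-34772139, chr15:88819396-88819695 and chr8:94386179-94386478:
Hspa5: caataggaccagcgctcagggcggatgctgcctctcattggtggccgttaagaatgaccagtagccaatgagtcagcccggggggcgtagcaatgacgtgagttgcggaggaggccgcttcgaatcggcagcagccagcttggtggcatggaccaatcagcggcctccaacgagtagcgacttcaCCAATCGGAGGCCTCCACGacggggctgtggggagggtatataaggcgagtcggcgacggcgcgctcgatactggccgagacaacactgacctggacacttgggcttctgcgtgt
Creld2: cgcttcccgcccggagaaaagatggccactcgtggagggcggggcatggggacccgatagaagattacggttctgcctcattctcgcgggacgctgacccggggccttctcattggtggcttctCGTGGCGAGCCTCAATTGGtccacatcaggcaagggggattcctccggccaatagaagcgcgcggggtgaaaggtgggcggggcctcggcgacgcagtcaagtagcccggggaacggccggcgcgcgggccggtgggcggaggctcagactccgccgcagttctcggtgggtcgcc
Herpud1: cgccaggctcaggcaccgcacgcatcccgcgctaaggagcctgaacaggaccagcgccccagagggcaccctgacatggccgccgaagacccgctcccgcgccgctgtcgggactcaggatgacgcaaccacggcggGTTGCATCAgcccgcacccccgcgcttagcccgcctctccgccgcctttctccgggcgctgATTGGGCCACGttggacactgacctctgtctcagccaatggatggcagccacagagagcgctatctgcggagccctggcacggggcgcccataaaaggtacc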

How the data were processed

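Liver polyA RNA was sequenced, and the authors deposited estimated counts per gene from Salmon on build mm10 after FastQC and MultiQC, in 1 table each for the cal. res. series, the ctrl. series, the diet experiment and the CORT experiment, and list DESeq2 in their processing. A table of transformed values was not used, and the annotation release is not given in the sources used here. Of 27654 gene IDs 27244 matched a symbol, and the rest held 0.107% of counts. Counts were rounded and tested in R 4.3.3 with edgeR 4.0.16 (quasi-likelihood F test, TMM, filterByExpr with a minimum count of 10, Benjamini-Hochberg adjusted p under 0.05 over all genes tested), each comparison on its own libraries. DESeq2 1.42.0, other filters, scalings and fits, and each library left out were alternatives. The test code was tested on simulated data. Promoter motifs were searched in RefSeq promoter sequences. Members and lists were chosen with earlier results of these data known. Named genes are the members, Nr3c1, the sensor genes Ern1, Eif2ak3 and Atf6, the called gene of each pathway list with the largest rise and the largest fall in the diet, CORT and WT step comparisons, and the 5 genes with a daily profile most like that of Hspa5. Pathway lists were sensors and proteases, ER chaperones and folding enzymes, ER-associated degradation, ATF4 and CHOP targets and cytosolic heat shock.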

Additional observations from a re-analysis of the deposited data

Results flagged for a closer look

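For the 10 members in 6 groups of 4 libraries, 5 of these 60 sets had a library far from the other 3, and chance gives about 1 in 20 groups. In ctrl. WT at ZT16 replicate 2 held the lowest Hspa5 (892 CPM, the others 1196 to 1250) and the lowest Pdia4 (197 CPM, the others 245 to 252), and it is also a library holding exocrine pancreas markers. In ctrl. WT at ZT8 Hyou1 was highest in replicate 1 (141 CPM, the others 74.8 to 85.9) and Sdf2l1 in replicate 4 (27.4 CPM, the others 8.85 to 11.9). In ctrl. GR LKO at ZT12 Atf4 was highest in replicate 1 (129 CPM, the others 97.5 to 102).

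The step of Herpud1 from ZT12 to ZT16 in WT differed between the diets by a log2 fold change of -1.88 (edgeR), from -2.19 in cal. res. and -0.35 in ctrl. Dnajb9 in cal. res. was lower in every GR LKO library than in every WT library at ZT4 (35.1, 37 and 36.5 against 42.1, 38.1 and 39 CPM, ratio of means 0.912) and ZT20 (23.8, 28.8 and 28.9 against 47.7, 32.3 and 51.8 CPM, 0.618) and higher in every one at ZT8 (46.5, 50 and 44.4 against 37.2, 30.5 and 35.8 CPM, 1.36), and the difference between these times was not tested.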

How the results depend on the processing

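Results were recomputed with DESeq2, without the filter on low counts, with library totals in place of TMM, with the replicate number as a block, with 1 fit over a diet, with the time series libraries for the diet comparison, and without each library in turn. Of the values under these alternatives 3637 kept their direction and their side of the threshold, 53 kept direction and lost the call, 61 kept direction and gained it, and 139 turned sign. Values of the time of day test are included, have no direction and were sorted by their call alone. Except for Hspa5, Hyou1, Dnajb9 and Creld2 in the diet comparison, which turned in the time series libraries, the values that turned sign belong to changes that were not called. The removal of libraries nearest another group and of those holding pancreas markers was chosen after seeing the data, and neither moved a count of members by more than 1.5 times. The cause of these moves was not tested. Depth limits the low genes: mean levels were under 10 CPM in all 28 groups for Ddit3, in 9 for Sdf2l1 and in 6 for Creld2.

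With DESeq2 the genotype counts were 11 in cal. res. and 8 in ctrl., the step by diet 4 and the step by genotype in cal. res. 1. With library totals in place of TMM the genotype count in cal. res. was 4 and the step by diet 4, and with 1 fit over the diet the genotype count in cal. res. was 9. Leaving out each library in turn gave 1 to 5 members for CORT, 1 to 3 for genotype in cal. res., 1 to 5 for the step by diet and 0 to 1 for the step by genotype in cal. res. In all other comparisons every library left out kept the count within 1.5 times.

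Replicate numbers do not mark a shared litter or day in the labels, and in no comparison did all same-numbered pairs deviate together at a correlation over 0.1: the correlation of a pair's deviations from the group means ran from -0.227 to 0.246. With the replicate block the count of members called was 3 for CORT, 1 for genotype in ctrl., 1 for the step in ctrl. GR LKO and 2 for the step by diet. With the replicate block the sign turned in genotype in cal. res. at ZT12 for Ddit3 (0.0417), in genotype in cal. res. at ZT20 for Sdf2l1 (-0.0144), in genotype in ctrl. at ZT4 for Ddit3 (-0.000946), in the step by genotype in ctrl. for Dnajb9 (0.0052).

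In the time series libraries, where diet and library number series cannot be told apart, the sign turned in diet at ZT12 for Hspa5 (-0.426), Hyou1 (-1.01), Dnajb9 (-0.457), Pdia4 (-0.716) and Creld2 (-0.625). With library totals in place of TMM the sign turned in diet at ZT12 for Pdia4 (-0.115), in genotype in cal. res. at ZT8 for Hyou1 (0.00273), Pdia4 (0.0432), Atf4 (6.36e-05) and Ddit3 (0.0262), in genotype in cal. res. at ZT12 for Dnajb9 (0.0945), Atf4 (0.143) and Ddit3 (0.141), in genotype in cal. res. at ZT16 for Xbp1 (0.04), in genotype in ctrl. at ZT4 for Pdia4 (0.0345), in genotype in ctrl. at ZT12 for Creld2 (0.0218), in genotype in ctrl. at ZT20 for Atf4 (0.00877). With 1 fit over all libraries of a diet the sign turned in genotype in cal. res. at ZT0 for Pdia4 (-0.00248). Without the libraries holding pancreas markers the sign turned in the step in ctrl. WT for Xbp1 (0.00976), in the step by genotype in cal. res. for Hspa5 (0.0835) and Hyou1 (0.0743).

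Leaving out each library in turn turned the sign of at least 1 log2 fold change for these members. In diet at ZT12 the ranges were Pdia4 -0.0952 to 0.0783. In CORT at ZT12 the ranges were Dnajb9 -0.113 to 0.302. In genotype in cal. res. at ZT0 the ranges were Pdia4 -0.0749 to 0.0724. In genotype in cal. res. at ZT4 the ranges were Xbp1 -0.0407 to 0.0768. In genotype in cal. res. at ZT8 the ranges were Hyou1 -0.12 to 0.08, Pdia4 -0.0555 to 0.0597, Atf4 -0.134 to 0.0256 and Ddit3 -0.196 to 0.103. In genotype in cal. res. at ZT12 the ranges were Dnajb9 -0.186 to 0.162, Atf4 -0.0767 to 0.0618 and Ddit3 -0.191 to 0.386. In genotype in cal. res. at ZT16 the ranges were Creld2 -0.482 to 0.144 and Xbp1 -0.105 to 0.07. In genotype in cal. res. at ZT20 the ranges were Sdf2l1 -0.174 to 0.277, Atf4 -0.174 to 0.00585 and Ddit3 -0.431 to 0.139. In genotype in ctrl. at ZT0 the ranges were Sdf2l1 -0.323 to 0.197, Pdia4 -0.0574 to 0.188 and Ddit3 -0.127 to 0.326. In genotype in ctrl. at ZT4 the ranges were Hspa5 -0.666 to 0.0179, Hyou1 -0.897 to 0.104, Dnajb9 -0.249 to 0.016, Sdf2l1 -0.799 to 0.209, Pdia4 -0.333 to 0.112, Creld2 -1.3 to 0.698, Herpud1 -0.23 to 0.0397 and Ddit3 -0.275 to 0.271. In genotype in ctrl. at ZT8 the ranges were Hyou1 -0.362 to 0.00899, Dnajb9 -0.311 to 0.083, Sdf2l1 -0.428 to 0.233, Creld2 -0.277 to 0.0747, Xbp1 -0.0407 to 0.15 and Ddit3 -0.059 to 0.174. In genotype in ctrl. at ZT12 the ranges were Hspa5 -0.0542 to 0.195, Hyou1 -0.0807 to 0.306 and Creld2 -0.256 to 0.105. In genotype in ctrl. at ZT16 the ranges were Atf4 -0.00947 to 0.125 and Ddit3 -0.206 to 0.266. In genotype in ctrl. at ZT20 the ranges were Hspa5 -0.188 to 0.0249, Creld2 -0.0764 to 0.196 and Atf4 -0.153 to 0.0751. In the step in ctrl. WT the ranges were Xbp1 -0.327 to 0.0445. In the step in ctrl. GR LKO the ranges were Xbp1 -0.00198 to 0.14. In the step by diet the ranges were Dnajb9 -0.0268 to 0.411 and Ddit3 -0.56 to 0.0186. In the step by genotype in cal. res. the ranges were Hspa5 -0.286 to 0.173, Hyou1 -0.335 to 0.159, Dnajb9 -0.442 to 0.00325 and Sdf2l1 -0.429 to 0.125. In the step by genotype in ctrl. the ranges were Dnajb9 -0.179 to 0.0999 and Ddit3 -0.457 to 0.0139. In genotype by diet at ZT12 the ranges were Dnajb9 -0.361 to 0.00123, Pdia4 -0.0375 to 0.171, Xbp1 -0.034 to 0.259 and Ddit3 -0.425 to 0.153.

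Counts over all genes that moved by more than 1.5 times were CORT at ZT12 935 (534 with replicate block), genotype in cal. res. at ZT0 61 (434 with DESeq2, 9 with replicate block and 169 with 1 fit per diet), genotype in cal. res. at ZT4 83 (443 with DESeq2, 13 with replicate block and 358 with 1 fit per diet), genotype in cal. res. at ZT8 308 (697 with DESeq2, 151 with replicate block and 724 with 1 fit per diet), genotype in cal. res. at ZT12 1795 (889 with replicate block and 2805 with 1 fit per diet). Further counts were genotype in cal. res. at ZT16 541 (916 with DESeq2, 287 with replicate block and 1025 with 1 fit per diet), genotype in cal. res. at ZT20 178 (686 with DESeq2, 76 with replicate block and 1127 with 1 fit per diet), genotype in ctrl. at ZT0 63 (407 with DESeq2, 9 with replicate block and 630 with 1 fit per diet), genotype in ctrl. at ZT4 23 (195 with DESeq2, 1 with replicate block and 48 with 1 fit per diet), genotype in ctrl. at ZT8 166 (369 with DESeq2, 36 with replicate block and 36 with 1 fit per diet). Further counts were genotype in ctrl. at ZT12 238 (564 with DESeq2, 101 with replicate block and 537 with 1 fit per diet), genotype in ctrl. at ZT16 232 (634 with DESeq2, 32 with replicate block and 469 with 1 fit per diet), genotype in ctrl. at ZT20 50 (297 with DESeq2, 3 with replicate block and 387 with 1 fit per diet), the step in ctrl. WT 1540 (998 with replicate block), the step in ctrl. GR LKO 1065 (16 with replicate block and 1821 with 1 fit per diet). Further counts were the step by genotype in cal. res. 388 (831 with DESeq2 and 258 with replicate block), the step by genotype in ctrl. 0 (20 with DESeq2), genotype by diet at ZT12 123 (473 with DESeq2 and 46 with replicate block). Without each library in turn they were CORT at ZT12 206 to 1008, genotype in cal. res. at ZT0 1 to 103, genotype in cal. res. at ZT4 13 to 127, genotype in cal. res. at ZT8 56 to 315, genotype in cal. res. at ZT12 899 to 1329, genotype in cal. res. at ZT16 234 to 346, genotype in cal. res. at ZT20 16 to 194, genotype in ctrl. at ZT0 3 to 81, genotype in ctrl. at ZT4 1 to 13, genotype in ctrl. at ZT8 56 to 160, genotype in ctrl. at ZT12 137 to 199, genotype in ctrl. at ZT16 84 to 183, genotype in ctrl. at ZT20 12 to 48, the step in ctrl. WT 875 to 1384, the step in ctrl. GR LKO 379 to 980, the step by diet 1181 to 1785, the step by genotype in cal. res. 210 to 357, the step by genotype in ctrl. 0 to 1, genotype by diet at ZT12 49 to 148. Without the libraries holding pancreas markers they were genotype in cal. res. at ZT12 1032, genotype in ctrl. at ZT16 93, the step by diet 1102, genotype by diet at ZT12 76.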
